A study of Mus musculus with 2 samples.

Results

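Phototransduction in rods and cones ends on a cyclic nucleotide-gated (CNG) channel and a calcium exchanger, and the genes described here encode these proteins. They were found by gene symbol in the deposited matrices, where 6 of 32285 genes matched: Cnga1 and Cngb1 (rod channel), Cnga3 and Cngb3 (cone channel), Slc24a1 (rod exchanger NCKX1) and Slc24a2 (cone exchanger NCKX2). Mouse retina had been profiled by droplet single-cell RNA sequencing after exposure to short-wavelength light or to full-spectrum white light, begun at postnatal day 14 and kept up for 2 weeks. Each light condition had 1 library, and the strain, the sex and the number of animals behind a library are not given in the sources used here. Every difference below is therefore a difference between 2 libraries, with no test and no replicate error. Intervals are 95% intervals that cover counting error only.

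In darkness, cyclic GMP holds the CNG channel of the outer segment open, and sodium and calcium enter the cell. Light lowers cyclic GMP and closes the channel, while a potassium-dependent sodium-calcium exchanger goes on carrying calcium out. The fall in calcium then feeds back, through calcium-binding proteins, on cyclic GMP synthesis and on recovery from light. Rods and cones build the channel from different alpha and beta subunits and use different exchangers. In humans, loss of the rod subunits is a known cause of retinitis pigmentosa, and loss of the cone subunits a known cause of achromatopsia.

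The short-wavelength library held 16106 barcodes with a median of 2434 unique molecular identifiers (UMIs), and the white-light library 5707 with a median of 2784. After filtering, 14023 and 5436 cells remained. Cells were placed in classes by UMIs of marker genes, none of them a channel or exchanger gene described here. The short-wavelength library gave 13123 rods and 350 cones, and the white-light library 4996 rods and 115 cones. Smaller classes were 108 and 36 rod bipolar-like cells, 27 and 7 cone bipolar-like cells, 72 and 22 Müller glia-like cells, and 40 and 14 microglia or macrophage-like cells. No cell passed the gates for horizontal, ganglion, astrocyte or vascular cells. The libraries shared 26 barcodes. Levels are given as CPM, the UMIs of a gene per 1000000 UMIs of the class. CPM values here are read across classes and libraries for 1 gene at a time, not between genes.

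Under GRCm38 (the mm10 assembly), Cnga1 (ENSMUSG00000067220) lies on chromosome 5 from 72603696 to 72644275, on the minus strand. Cngb1 (ENSMUSG00000031789) lies on chromosome 8 from 95239045 to 95306585, minus strand, and its RNAs include shorter ones, known to encode soluble glutamic acid-rich proteins, that gene counts do not separate. Slc24a1 (ENSMUSG00000034452) lies on chromosome 9 from 64922861 to 64951607, minus strand. Cnga3 (ENSMUSG00000026114) lies on chromosome 1 from 37214434 to 37263384, plus strand. Cngb3 (ENSMUSG00000056494) and Slc24a2 (ENSMUSG00000037996) both lie on chromosome 4, Cngb3 from 19280850 to 19510623 on the plus strand and Slc24a2 from 86983124 to 87230477 on the minus strand. In the GENCODE annotation only processed pseudogenes overlap these genes, Gm5297 in Cnga1 and Gm11877 in Cngb3, both on the same strand and neither a row of the matrices. Of all stretches of 50 bases in the transcripts of each gene, at most 0.160% also occurred in transcripts of another gene, and none was shared among the 6.

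The promoters of the 3 rod genes are shown because these genes had their highest level in the same class. Each is the 250 bases before the RefSeq transcription start on GRCm38.p6, read 5′ to 3′ on the coding strand. They lie at chr5:72642753-72643002 (Cnga1), chr8:95306586-95306835 (Cngb1) and chr9:64951621-64951870 (Slc24a1), all on the minus strand. Capitals mark TAATCC, a core sequence that the photoreceptor homeodomain factor CRX is known to bind, sought on both strands (GGATTA on the other).
Cnga1: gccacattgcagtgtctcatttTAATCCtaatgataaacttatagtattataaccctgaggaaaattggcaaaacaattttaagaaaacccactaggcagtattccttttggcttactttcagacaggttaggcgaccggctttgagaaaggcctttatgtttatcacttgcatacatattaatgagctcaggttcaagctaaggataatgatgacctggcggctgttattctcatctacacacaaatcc
Cngb1: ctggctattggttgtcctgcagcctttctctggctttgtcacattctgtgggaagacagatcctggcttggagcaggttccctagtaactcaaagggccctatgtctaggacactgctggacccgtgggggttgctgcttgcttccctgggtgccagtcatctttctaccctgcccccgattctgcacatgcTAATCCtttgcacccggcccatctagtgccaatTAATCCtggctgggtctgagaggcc
Slc24a1: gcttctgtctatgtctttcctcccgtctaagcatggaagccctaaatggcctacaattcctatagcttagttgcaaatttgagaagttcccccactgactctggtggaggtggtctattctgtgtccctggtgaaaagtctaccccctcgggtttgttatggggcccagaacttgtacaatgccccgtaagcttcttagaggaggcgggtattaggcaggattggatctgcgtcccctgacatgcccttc
Cngb1 held 2 matches, at bases -58 and -25 from the start, and Cnga1 held 1, at base -228. None stood in the window of Slc24a1, nor in the windows of Cnga3 and Slc24a2, which have 2 each. Promoters were matched for 5 of the 6 genes, all but Cngb3. Of all 32851 promoter windows of this length, 6.25% held the sequence. No window of these genes held TGCTGA or its complement TCAGCA, part of the site known for the rod factor NRL, a sequence that stood in 16.1% of all windows.

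The alpha subunit gene of the rod channel, Cnga1, was read in nearly every rod. It stood at 1444 CPM (1432 to 1456) in short-wavelength rods and 1518 CPM (1500 to 1537) in white-light rods. UMIs of Cnga1 were found in 93.9% and 94.5% of rods, and in 74.0% and 74.4% among the 13116 and 4772 rods that could be thinned to 1000 UMIs, 7 and 224 shallower rods being left out. Cngb1, the beta subunit gene, stood at 1127 CPM (1116 to 1137) and 1098 CPM (1083 to 1114), with UMIs in 90.9% of rods in both libraries. Slc24a1, the exchanger gene, stood at 1234 CPM (1223 to 1245) under short-wavelength light and 1195 CPM (1179 to 1212) under white light, with UMIs in 90.5% and 90.8% of rods. All 3 genes were found together in 77.9% of rods from short-wavelength light, against 80.3% from white light, and in 34.2% and 33.0% after thinning. Thinned rods with UMIs of both Cnga1 and Cngb1 made up 50.1% and 49.0%, against 49.8% and 48.5% for the product of the 2 separate shares. The subunits were thus found together about as often as their separate shares would give, in both libraries.

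Rods were the class with the highest level of each of these 3 genes in both libraries. Cones came next in both libraries for Cnga1 and Slc24a1, at 278 CPM (257 to 301) and 264 CPM (230 to 303) for Cnga1. The white-light Cnga1 interval overlapped those of rod bipolar-like (148 to 253) and microglia or macrophage-like cells (105 to 280). For Slc24a1 the cone levels were 256 CPM (235 to 278) with short-wavelength light and 187 CPM (157 to 219) with white light, where the interval overlapped those of other classes. The bipolar-like, glial and macrophage classes stood between 86.0 and 218 CPM for all 3 genes. Cngb1 stood at 214 CPM in short-wavelength cones, 218 CPM in rod bipolar-like and 213 CPM in cone bipolar-like cells, and these 3 classes did not differ beyond their intervals.

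Rod RNA was found in every class, so these levels were read beside the 12 rod gate markers, such as Gnat1 (rod transducin) and Sag (rod arrestin). The bipolar-like, glial and macrophage classes were gated at no more than 1.5% rod markers among all UMIs, and rods at 2% or more. Cones needed at least 50% cone markers among cone and rod marker UMIs. These gates bear on the marker shares. In microglia or macrophage-like cells, which are not known to use phototransduction, the markers stood at 9.58% to 16.6% of their rod level with short-wavelength light and 6.07% to 21.2% with white light. Cnga1, Cngb1 and Slc24a1 stood there at 9.62%, 13.3% and 14.3% of their rod level under short-wavelength light, and at 11.7%, 8.06% and 10.7% under white light, within the marker range. Cnga1 UMIs were found in 42.5% and 42.9% of these cells, whose median UMI counts were 7607 and 6920, and in 93.9% and 94.5% of rods, with medians of 2328 and 2742. In cones, 8 of the 12 markers stood at 16.3% to 25.3% of their rod level with short-wavelength light and 15.7% to 20.8% with white light. The other 4 (Pde6g, Gngt1, Sag and Rom1) stood at 40% or more. Cnga1, Cngb1 and Slc24a1 were at 19.3%, 19.0% and 20.7% of their rod level in short-wavelength cones, and at 17.4%, 13.8% and 15.6% in white-light cones. With short-wavelength light all 3 lay inside the range of the 8 markers, while with white light Cngb1 and Slc24a1 lay under it. Their white-light intervals (11.5% to 16.6% and 13.2% to 18.4%) held the lowest marker value of 15.7%. All 3 lay under the 4 highest markers in both libraries. The 8 and the 4 were divided by these values, and the part of rod RNA in the cone levels was not tested.

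In rod bipolar-like cells Cngb1 stood above all 12 rod markers under short-wavelength light and level with the highest under white light. It stood at 19.3% of its rod level (16.4% to 22.6%) in those of the short-wavelength library, where the 12 rod markers ran from 9.01% to 17.3%. Under white light it stood at 15.3% (11.4% to 20.2%), and the markers ran from 8.18% to 15.3%. Cnga1 and Slc24a1 stood at 9.90% and 10.0% there under short-wavelength light, and at 12.9% and 10.7% under white light, inside the marker range. The short-wavelength interval of Cngb1 held the value of the highest marker, Rom1, and lay above the values of the other 11. It also overlapped the interval of Reep6 (10.2% to 17.0%). The gate of these cells limits the rod markers and not Cngb1, which bears on this order. The part of rod RNA in the Cngb1 level of these cells was not tested.

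**Figure D1:**
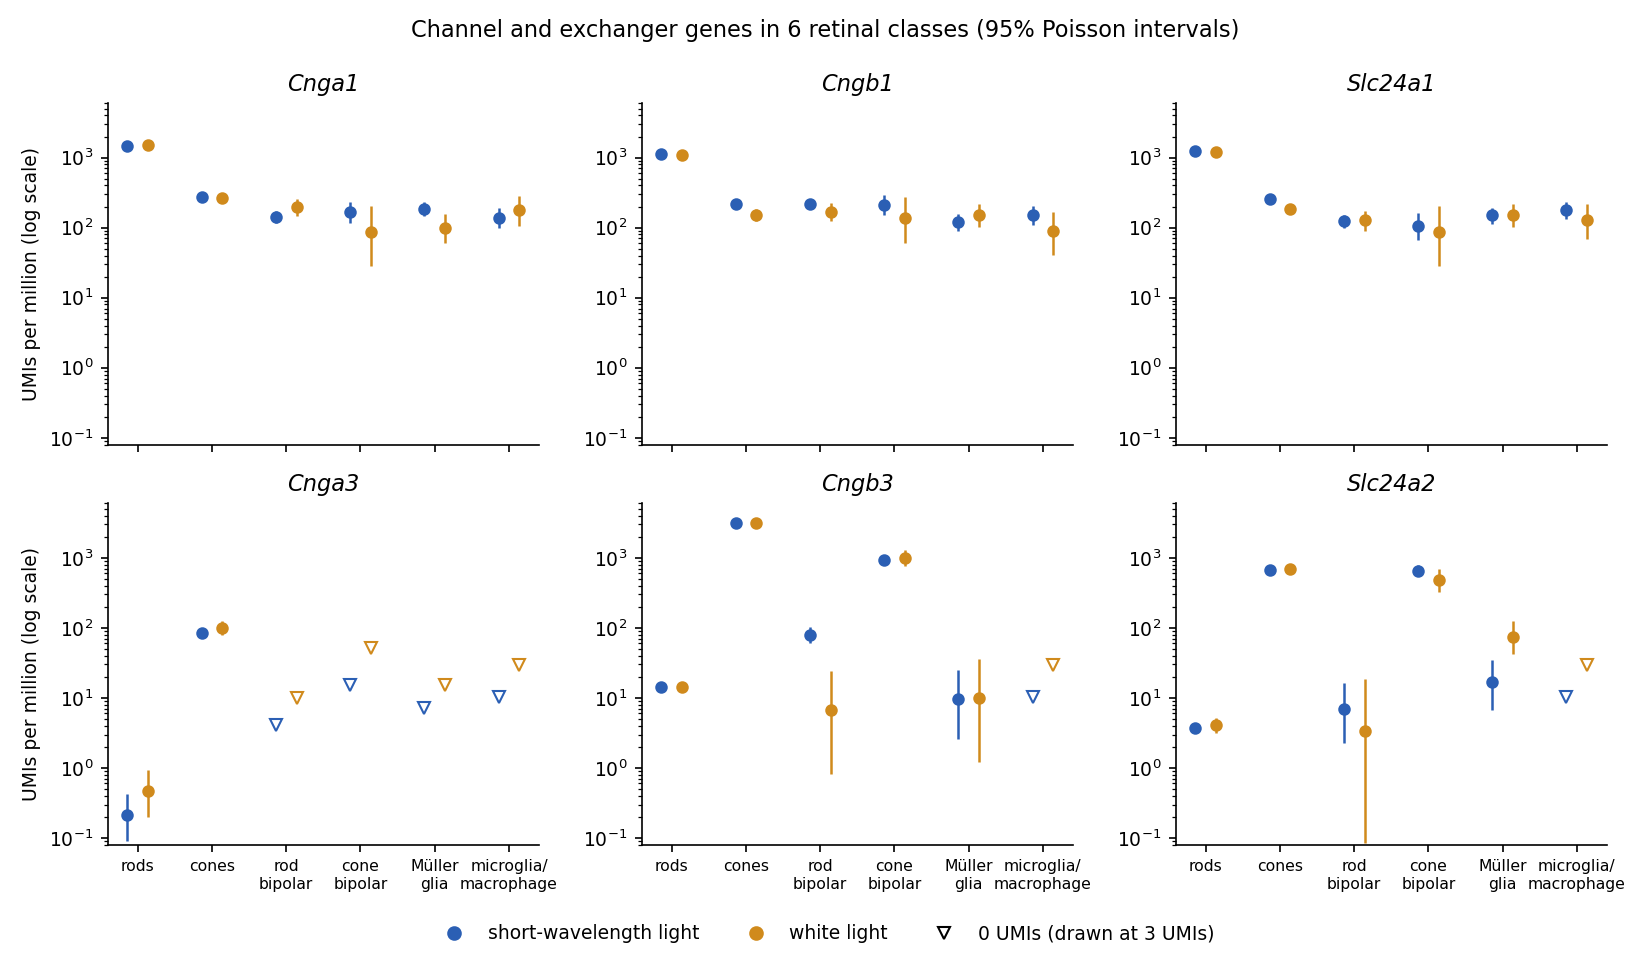
Level of each gene in 6 classes (CPM, log scale), short-wavelength light in blue on the left and white light in orange on the right of each pair, with 95% Poisson intervals. Open triangles mark 0 UMIs, drawn at the level of 3 UMIs. Rods are the highest class for the 3 genes in the upper row, at 1098 to 1518 CPM, while Cngb3 and Slc24a2 in the lower row are high in cones and in cone bipolar-like cells.

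Cnga3, the alpha subunit gene of the cone channel, had 84.3 CPM (72.7 to 97.2) in cones from short-wavelength light and 99.7 CPM (78.8 to 124) in cones from white light. It rested on 189 and 78 UMIs, found in 39.4% and 41.7% of cones. No Cnga3 UMI was found in any bipolar-like, Müller glia-like or microglia or macrophage-like cell of either library. For the 108 rod bipolar-like cells under short-wavelength light, this allows a share of cells with a UMI of up to 2.78%, and for the 36 under white light up to 8.33%. Rods held 8 Cnga3 UMIs in each library, all in separate cells.

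Cngb3, the beta subunit gene, had 3136 CPM (3063 to 3210) in cones from short-wavelength light and 3096 CPM (2974 to 3221) in those from white light. Cones held a median of 19 Cngb3 UMIs under short-wavelength light, with 10 and 29 as quartiles, and 21 under white light, with 4.5 and 31. Cngb3 UMIs were found in 319 of 350 cones with short-wavelength light and in 98 of 115 with white light. Slc24a2, the cone exchanger gene, stood at 680 CPM (646 to 715) and 685 CPM (628 to 745), with UMIs in 89.7% and 77.4% of cones and a median of 4 UMIs per cell in both libraries. Median UMI counts per cone were 6361.5 and 6759.

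In rods, these genes stood at or under the share of the cone gate markers. Cnga3, Cngb3 and Slc24a2 were at 0.252%, 0.454% and 0.544% of their cone level in short-wavelength rods and at 0.469%, 0.459% and 0.597% in white-light rods. The 8 cone markers, among them Arr3 (cone arrestin) and Gnat2 (cone transducin), ran from 0.470% to 0.675% and from 0.497% to 0.638%. None of the 3 genes stood above the marker range. Slc24a2 lay inside it in both libraries, and Cngb3 and Cnga3 lay under it. The rod gate admits at most 5% cone markers among cone and rod marker UMIs, which bears on these shares.

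Cones over rods, all 3 cone genes were at least 2-fold higher and all 3 rod genes at least 2-fold lower in both libraries. Of all genes tested (at least 50 UMIs over both classes and 10 CPM in 1 of them), 11.2% in the short-wavelength library and 10.6% in the white-light library were at least 2-fold higher in cones, and 8.81% and 12.2% at least 2-fold lower. Cnga3 stood in cones at 396 times (197 to 931) and 213 times (103 to 511) its rod level, with wide intervals that rest on the 8 rod UMIs. The ratio was 220 (202 to 241) and 218 (191 to 249.8) for Cngb3, rank 4 of all genes tested by log2 ratio in both libraries. For Slc24a2 it was 184 (155 to 220) and 167 (130 to 218). Cnga1 was 5.19-fold lower in cones (4.8 to 5.63) in the short-wavelength library and 5.74-fold lower (5.01 to 6.61) in the white-light library. Cngb1 was 5.25-fold (4.8 to 5.76) and 7.22-fold lower (6.03 to 8.73), and Slc24a1 4.82-fold (4.44 to 5.24) and 6.41-fold lower (5.45 to 7.59). These last 3 folds moved with the cone gate. In the 199 and 58 cones with at least 70% cone markers, in place of 50%, the log2 ratios of Cnga1, Cngb1 and Slc24a1 were -3.44, -3.41 and -3.33 under short-wavelength light, against -2.36, -2.37 and -2.25 with all cones. Under white light they were -3.94, -3.915 and -4.14, against -2.50, -2.81 and -2.65.

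**Figure D2:**
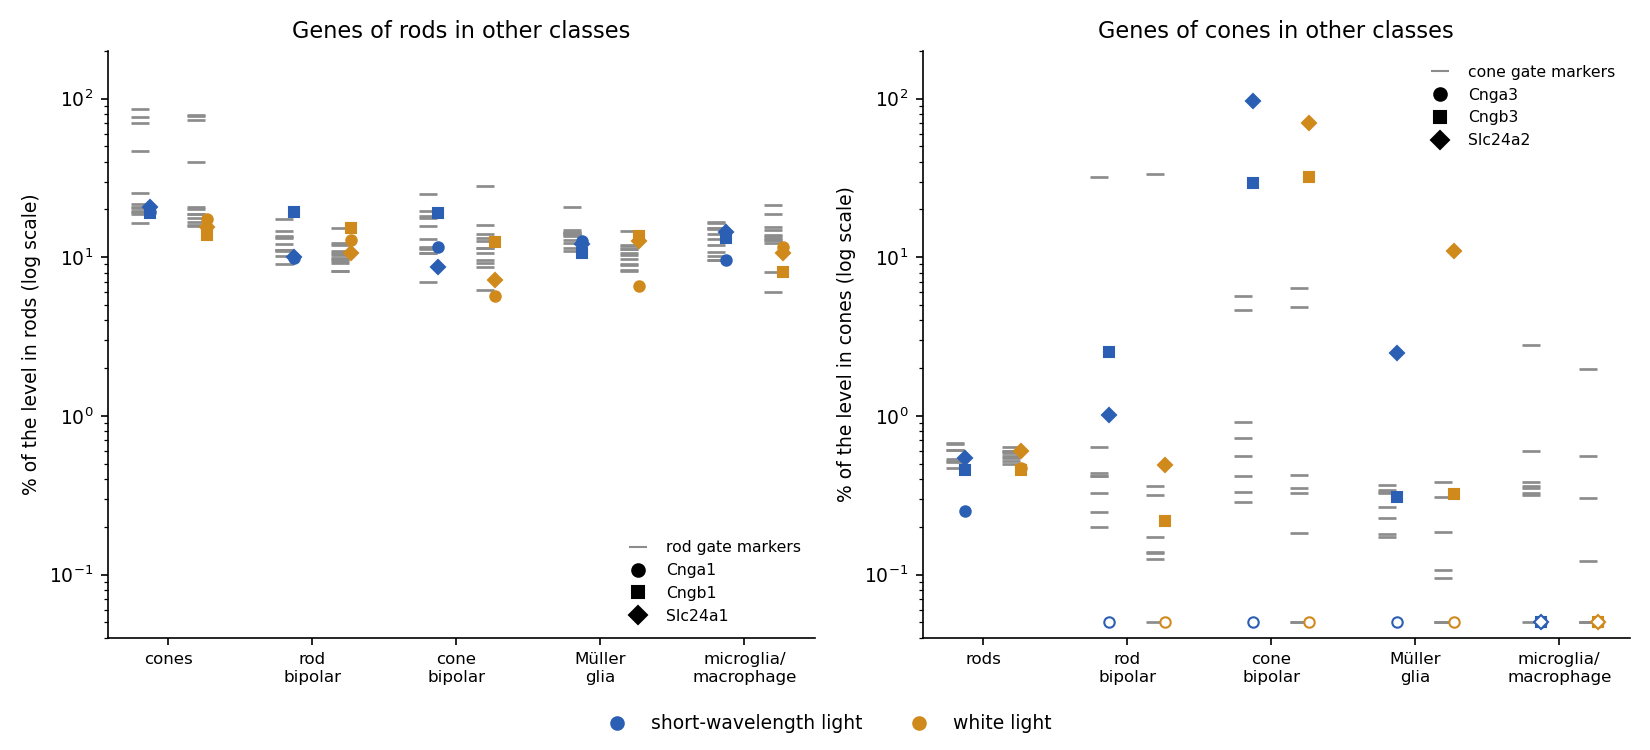
Level of rod genes (left) and cone genes (right) in the other classes, in percent of their level in rods or in cones (log scale), for the gate markers (grey dashes) and for the channel and exchanger genes, short-wavelength light in blue and white light in orange. Values of 0 are drawn as open symbols at the lower edge. The rod genes lie near the rod markers, while Cngb3 (29.3% and 32.2%) and Slc24a2 (96.3% and 70.4%) in cone bipolar-like cells lie above every cone marker there, which reach 6.41%.

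Cone bipolar cells are interneurons that take the signal of cones, and the cone bipolar-like cells held 2 of the cone genes far above the cone markers. Cngb3 stood there at 919 CPM (790 to 1063) under short-wavelength light and 998 CPM (758 to 1290) under white light, 29.3% (25.1% to 33.97%) and 32.2% (24.4% to 41.8%) of its cone level. Slc24a2 stood at 655 CPM (547 to 778) and 482 CPM (320 to 696), 96.3% (79.9% to 115%) and 70.4% (46.3% to 103%) of its cone level, with intervals that reach the level in cones. The 8 cone markers stood at 0.287% to 5.71% and at 0% to 6.41%, with Gnat2 and Gngt2, a cone transducin gamma gene, the highest of them. Arr3 stood at 0.419% and 0.426%. Cnga3, the partner subunit of Cngb3 in the cone channel, had 0 UMIs in these cells of both libraries. For the 27 under short-wavelength light this allows a level of up to 15.2 CPM, and for the 7 under white light up to 51.6 CPM. As a share of the cone level of Cnga3, the intervals reached 22.4% and 65.2%. Cngb3 spans 229.8 kb, and whether reads in its introns were counted is not given in the sources used here.

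The cone bipolar-like cells differed among themselves in Cngb3. Grik1, a kainate receptor gene known from OFF cone bipolar cells, was either at 20 UMIs or more or at 2 or fewer in each cell. This division was chosen after the values were seen and is a description. Among cells with high Grik1, Cngb3 UMIs were found in 10 of 11 in the short-wavelength library and 2 of 2 in the white-light library, with 0 to 41 UMIs per cell. Among cells with low Grik1, Cngb3 was found in 1 of 16 and 3 of 5. The short-wavelength cell with low Grik1 held 41 Cngb3 UMIs, and the 3 white-light cells 26, 6 and 4. The ON bipolar genes Isl1, Grm6 and Trpm1 summed to medians of 1 and 2.5 UMIs in the cells with high Grik1, and of 15 and 7 in the others. Slc24a2 UMIs were found in 9 of 11 and 2 of 2 cells of high Grik1 and in 14 of 16 and 4 of 5 cells of low Grik1. Under short-wavelength light its level was 423 CPM (284 to 608) in the cells of high Grik1. In those of low Grik1 it was 778 CPM (633 to 947), with intervals that lay apart. There 1 cell held 27 of the 100 Slc24a2 UMIs, and the difference without that cell was not tested. Under white light the levels were 541 CPM (259 to 994) and 454 CPM (269 to 718), with intervals that overlapped.

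**Figure D3:**
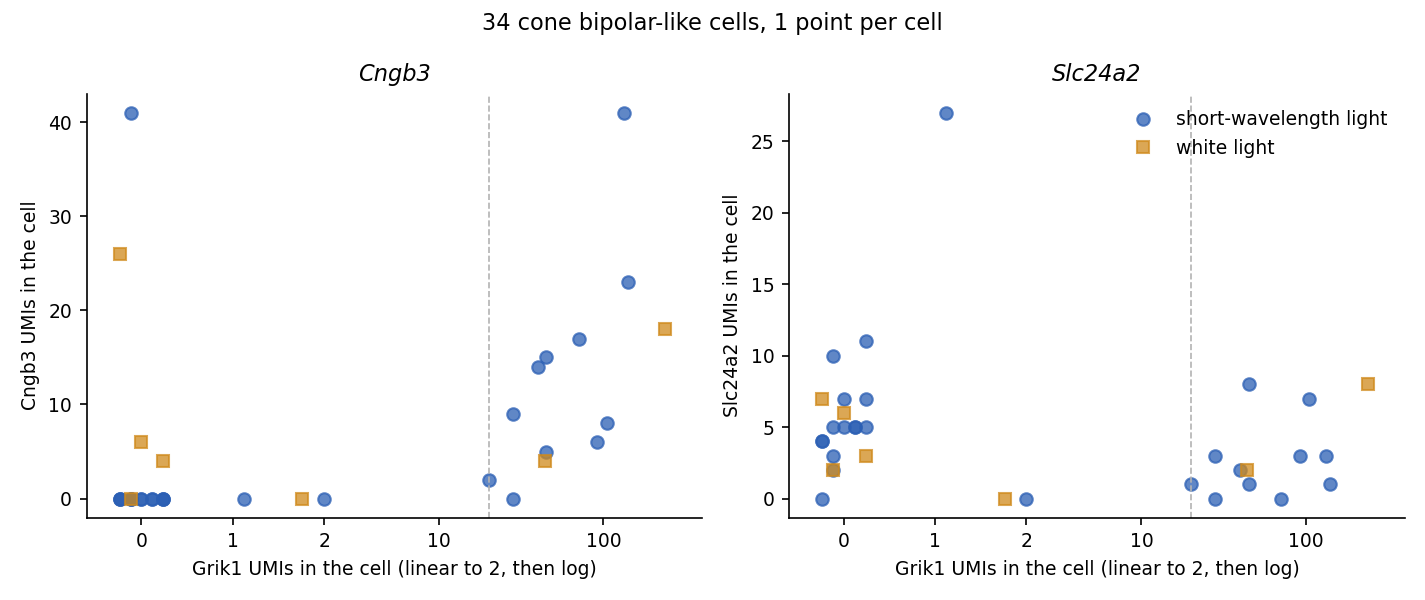
UMIs of Cngb3 (left) and Slc24a2 (right) against UMIs of Grik1 (linear to 2, then log) in each cone bipolar-like cell, with short-wavelength light as blue circles and white light as orange squares. Points of 2 or fewer Grik1 UMIs are spread sideways so that they can be told apart. The dashed line stands at 20 Grik1 UMIs; right of it 10 of 11 and 2 of 2 cells held Cngb3, while Slc24a2 was found on both sides.

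Rod bipolar-like cells held little of the cone genes. Cngb3 stood at 79.1 CPM (59.9 to 102) under short-wavelength light on 57 UMIs, of which 48 lay in 3 of the 108 cells. Those 3 cells held 0 to 3 UMIs of Prkca, a protein kinase C gene that marks rod bipolar cells, while the other 105 held 5 or more, with a median of 46. They also held 3 to 4 UMIs of Scgn and 2 to 8 of Lhx4, both cone bipolar markers, and 0 of Grik1. The 3 cells were picked by their Cngb3 UMIs. Cngb3 stood at 12.9 CPM in the other 105, a fall that this choice fixed in advance. Under white light Cngb3 stood at 6.74 CPM (0.816 to 24.3), on 2 UMIs. Slc24a2 had 5 UMIs in short-wavelength and 1 in white-light rod bipolar-like cells. In Müller glia-like cells Cngb3 had 4 and 2 UMIs, and Slc24a2 7 and 15, of which 13 of the white-light UMIs lay in 1 cell. Microglia or macrophage-like cells had 0 UMIs of both genes in both libraries.

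Among cones, the levels of the cone genes were set beside their opsins. Cones with at least 90% Opn1sw among opsin UMIs numbered 64 in the short-wavelength and 29 in the white-light library, those with both opsins 161 and 44, and those with at least 90% Opn1mw 125 and 42. Slc24a2 was lowest in the Opn1sw cones in both libraries, at 590.5 CPM (511 to 679) and 427 CPM (323 to 553). Cones with both opsins stood at 726 CPM (677 to 779) and 755 CPM (667 to 852), and their intervals overlapped those of Opn1sw cones only under short-wavelength light. Opn1mw cones stood at 654 CPM (600 to 712) and 718 CPM (625 to 820). The Opn1sw cones also had the fewest UMIs per cell, with medians of 5214 and 3271, against 7040 and 7679.5 in cones with both opsins. Arr3 was also lowest in them, at 5300 CPM in Opn1sw cones, 7633 CPM in cones with both opsins and 10940 CPM in Opn1mw cones under short-wavelength light, and 4956, 7735 and 9881 CPM under white light. The part of depth or of the share of cone RNA in the Slc24a2 order was not tested. Cngb3 had no common order over the opsin classes: it was highest in Opn1sw cones under short-wavelength light, at 3338 CPM (3146 to 3539), and lowest there under white light, at 2837 CPM (2559 to 3138). Cnga3 stood between 71.8 and 123 CPM, and the intervals of all 3 opsin classes overlapped in both libraries.

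The genes most like each of the 6 were sought over 10 combinations of class and library with at least 20 cells, by Pearson's r of log2(CPM + 5) among 11946 genes. These points share libraries and rod RNA, and the values are a description. Cnga1 was most like Faim (r = 0.981), Atp11b (0.977) and A930006I01Rik (0.975). Cngb1 was most like Tet3 (r = 0.994), a gene of DNA demethylation, Gm41804 (0.976) and Ric8b (0.966). For Slc24a1 the genes were Samd11 (r = 0.984), Pdia5 (0.984) and Pias1 (0.972). Cnga3 was most like Gm28960 (r = 0.9999), Crp (0.9998), at 81.1 and 94.5 CPM in cones, and Fbxw21 (0.9996). Away from cones Cnga3 stood at 0.467 CPM or less, so its r values set cones against all other points and show little more. Cngb3 was most like Epha10 (r = 0.981), an ephrin receptor gene, Gm32509 (0.978) and Pgc (0.976), and Slc24a2 was most like Gm31615 (r = 0.980), Nmnat2 (0.975) and Susd4 (0.95).

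Between the light conditions, the rod genes differed little in rods. A gene counted as past the limit where 1 library stood at least 25% above the other, among genes with at least 50 UMIs in the class and 10 CPM in 1 library. None of the 4 genes tested in rods was past it, beside 4.35% of all 9030 genes tested (2.13% higher and 2.23% lower). Relative to white light, Cnga1 was at 0.951 times (0.937 to 0.965), while Cngb1 was at 1.03 times (1.01 to 1.04) and Slc24a1 at 1.03 times (1.02 to 1.05). Among the rod markers, Gnat1 was at 0.911 times, Sag at 0.966 times and Pde6a at 1.03 times in rods. Cngb3, which in rods lay under the share of the cone markers, had 14.2 CPM in both libraries, with an interval of the ratio of 0.860 to 1.17. Cnga3 and Slc24a2 had too few counts in rods, with 8 and 139 UMIs under short-wavelength light against 8 and 70 under white light. Haemoglobin RNA was lower in short-wavelength rods, with Hbb-bs at 59.8 CPM against 264 CPM. The 2 short-wavelength and 43 white-light rods of at least 20 haemoglobin UMIs were then left out. The log2 ratios of Cnga1, Cngb1 and Slc24a1 were -0.07, 0.04 and 0.04, against -0.07, 0.04 and 0.05 with all rods. Haemoglobin still made up 0.00509% and 0.00941% of the UMIs of the rods left. The part of haemoglobin RNA in these ratios was not tested.

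The balance of the rod genes needs no scaling to library totals. Cnga1 gave 56.2% of Cnga1 and Cngb1 UMIs (55.9% to 56.5%) in short-wavelength rods and 58.0% (57.6% to 58.5%) in white-light rods. Slc24a1 gave 52.3% of Slc24a1 and Cngb1 UMIs (51.9% to 52.6%) and 52.1% (51.6% to 52.6%). Slc24a1 gave 46.1% of Slc24a1 and Cnga1 UMIs (45.8% to 46.4%) and 44.0% (43.6% to 44.5%). Over all rods the intervals of the shares that include Cnga1 thus lay apart between the libraries, and those of exchanger and beta subunit overlapped.

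These levels varied more among rods than between the libraries. Malat1, a nuclear RNA, stood 1.11 times as high in short-wavelength rods as in white-light rods, and rods were divided into 5 parts by its share of UMIs. The lowest part held 2165 short-wavelength and 1458 white-light rods, and the highest 3025 and 599. Cnga1 stood at 1933 CPM and 1849.5 CPM in the lowest part, and at 1289 CPM and 1375 CPM in the highest. Slc24a1 differed more over the same parts, with 1886 CPM and 1606 CPM in the lowest and 1072 CPM and 1012 CPM in the highest. Cngb1 varied less, at 1284 CPM and 1215 CPM against 1111 CPM and 1049.6 CPM. Most of the difference for all 3 lay between the lowest part and the next. The rod marker Gnat1 fell more, from 5878 and 5538 CPM in the lowest part to 2486 and 2500 CPM in the highest. Pde6b, another rod marker, went the other way, from 1715 and 1710 CPM to 1929 and 1886 CPM.

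**Figure D4:**
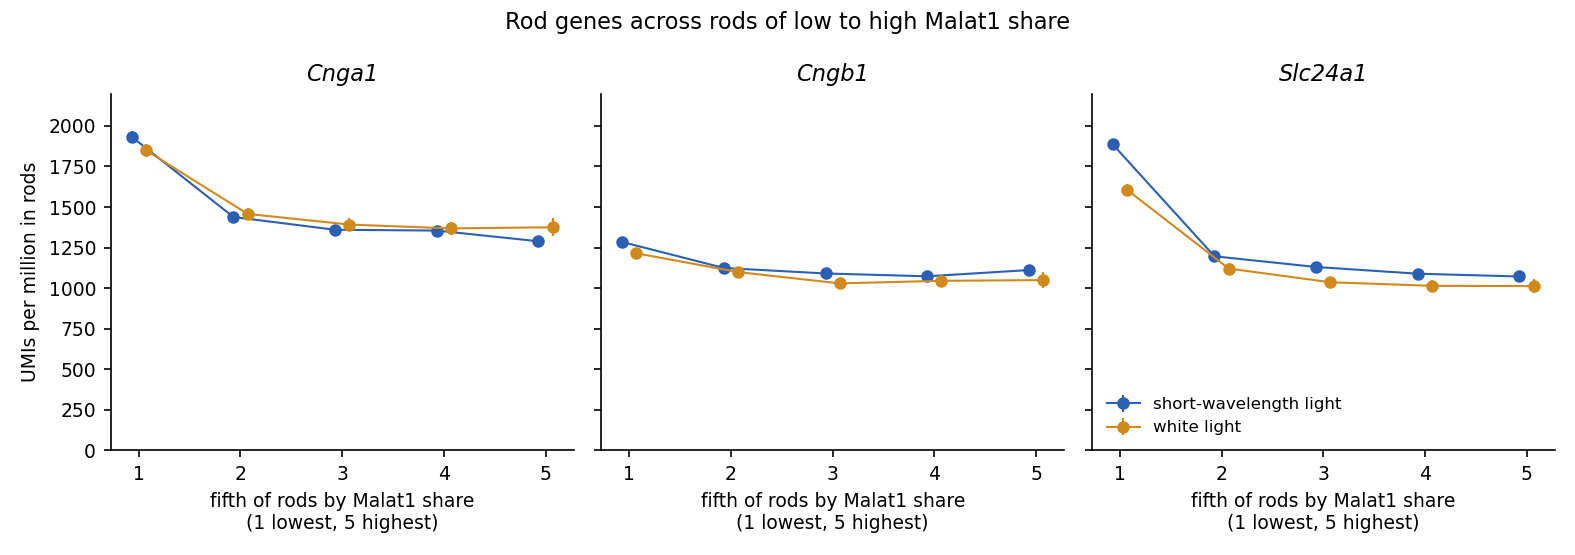
Level of Cnga1, Cngb1 and Slc24a1 (CPM) in rods divided into 5 parts by their Malat1 share, from lowest to highest, with short-wavelength light in blue and white light in orange and 95% Poisson intervals. Slc24a1 is higher under short-wavelength light in all 5 parts, at 1.06 to 1.17 times, while the lines of Cnga1 cross.

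Within these parts the light ratio of Slc24a1 was 1.17, 1.07, 1.09, 1.07 and 1.06 from lowest to highest Malat1 share, with each interval above 1. That of Cngb1 was 1.06, 1.02, 1.06, 1.03 and 1.06, above 1 in its interval in 3 parts. Cnga1 was at 1.05 times (1.02 to 1.08) in the lowest part and 0.937 times (0.898 to 0.979) in the highest, and its intervals held 1 in the other 3. The lower Cnga1 level over all rods was thus not found in every part, and the part of Malat1 in it was not tested. The share of Cnga1 among Cnga1 and Cngb1 UMIs had overlapping intervals in 3 of the 5 parts, such as the lowest (60.1% and 60.4%), and lay apart in the highest, at 53.7% (53.0% to 54.4%) and 56.7% (55.3% to 58.2%). That of Slc24a1 among Slc24a1 and Cngb1 UMIs lay apart in the lowest part, at 59.5% and 56.9%, and overlapped in the other 4. The share of Slc24a1 among Slc24a1 and Cnga1 UMIs lay apart in all 5 parts. It was 49.4% (48.7% to 50.1%) and 46.5% (45.7% to 47.3%) in the lowest part. In the highest it was 45.4% (44.7% to 46.1%) and 42.4% (40.9% to 43.9%).

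Rods were also divided into 5 parts by UMIs per cell and by mitochondrial share. In the part with the fewest UMIs, Slc24a1 was at 0.943 times its white-light level (0.889 to 1.0016) and Cnga1 at 0.890 times (0.842 to 0.940). Over the other 4 parts by UMIs, Slc24a1 was at 1.01 to 1.12 times and Cnga1 at 0.947 to 0.992 times. By mitochondrial share, Slc24a1 was at 1.04 to 1.09 times and Cnga1 at 0.95 to 0.989 times. By ratio, the higher Slc24a1 level was thus found in all parts by Malat1 and by mitochondrial share, but not in the rods with the fewest UMIs. Cnga1 was under 1 in all parts by UMIs and by mitochondrial share. Some intervals by UMIs and by mitochondrial share lay clear of 1 and others held it. For Slc24a1, that of the part with the most UMIs (0.988 to 1.04) held 1. For Cnga1, those of the lowest (0.953 to 1.03) and highest (0.957 to 1.02) mitochondrial share held 1.

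In cones, none of the cone genes was past the limit between the light conditions. Relative to white light, Cnga3 was at 0.846 times (0.646 to 1.12), Cngb3 at 1.01 times (0.967 to 1.06) and Slc24a2 at 0.993 times (0.899 to 1.10). The counting intervals of Cngb3 and Slc24a2 lay within the limit on both sides, while that of Cnga3 reached past it. Of the rod genes, Cngb1 was at 1.41 times (1.15 to 1.74), with 214 CPM against 152 CPM, and Slc24a1 at 1.37 times (1.14 to 1.66), with 256 CPM against 187 CPM. Cnga1 was at 1.05 times (0.898 to 1.24). These 2 of 6 genes past the limit stand beside 27.9% of all 7832 genes tested in cones (16.7% higher and 11.2% lower), a share near theirs. Of the 12 rod markers in cones, 2 were also past the limit, both higher, Pde6a at 1.33 times and Reep6 at 1.45 times, and the median marker was at 1.04 times. Thinned to 1000 UMIs per cell, Slc24a1 alone was past the limit.

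**Figure D5:**
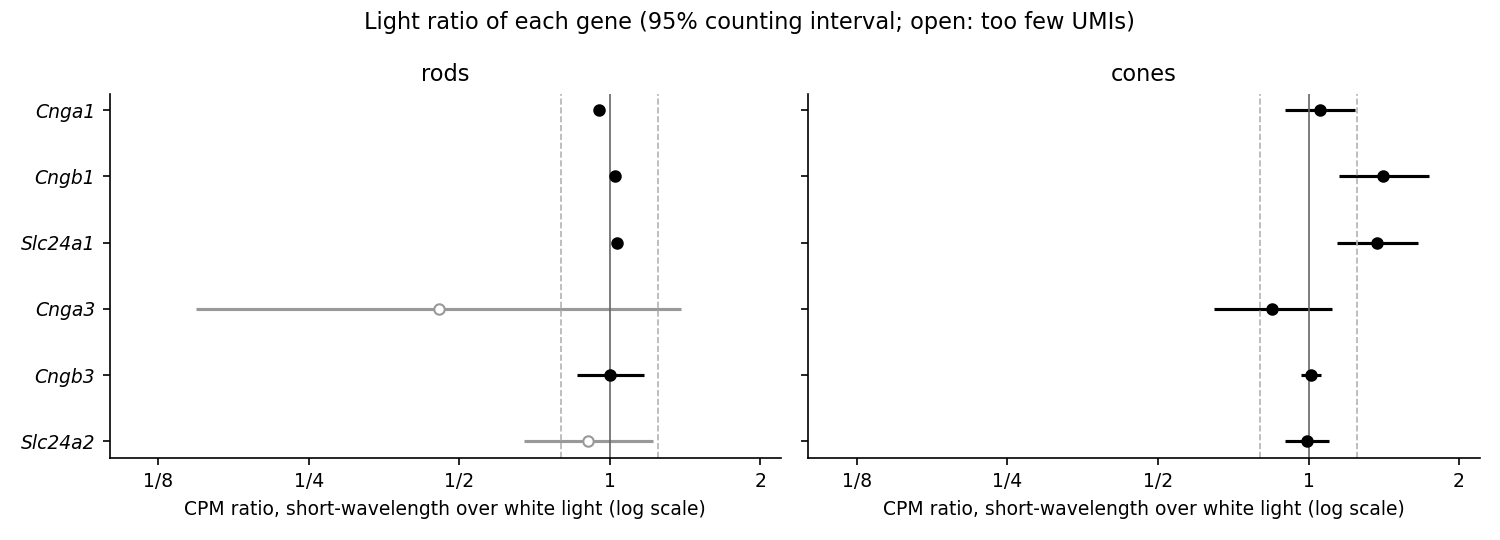
CPM ratio of short-wavelength over white light for each gene in rods (left) and cones (right), on a log axis with 95% counting intervals. Dashed lines mark the limit of 25% either way, and open grey points have too few UMIs to be counted. In rods Cnga1, Cngb1 and Slc24a1 lie within 0.951 to 1.03, and in cones Cngb1 (1.41) and Slc24a1 (1.37) lie past the right line.

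Genes that work with the channel and the exchanger were followed in 6 lists of 46 genes. In rods 32 were tested, 0 were higher and 2 lower under short-wavelength light, beside the 4.35% of all genes past the limit. Slc24a5, an exchanger gene known from melanosomes, was 1 of these, at 0.712 times (0.653 to 0.776). Of the genes for cyclic GMP turnover, 7 of 8 were tested, with a median log2 ratio of 0.02, against 0.01 over all genes. Among them the phosphodiesterase genes Pde6a (1.03 times), Pde6b (1.03 times) and Pde6g (0.971 times) and the guanylate cyclase gene Gucy2f (1.01 times) stayed near 1. The calcium sensors had the lowest median of the lists with more than 1 gene tested, at -0.18 over 7 genes. Rcvrn (recoverin) was at 0.891 times (0.880 to 0.903) and Guca1a, a guanylate cyclase activator gene, at 0.880 times (0.867 to 0.892). Guca1b, its relative, was at 0.956 times and Cabp4, a calcium-binding protein gene of the synapse, at 0.992 times. The median was -0.01 for other calcium channels, pumps and exchangers, with Cacna1f at 1.10 times and Atp2b1 at 0.955 times. It was -0.09 for membrane partners such as Prph2 (0.940 times) and Rom1 (0.944 times), tetraspanin genes of the disc rim, and -0.07 for potassium and sodium transport, with Atp1b2 at 0.928 times.

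In cones 33 list genes were tested, 3 higher and 1 lower, beside the 27.9% of all genes. Slc24a4, another potassium-dependent exchanger gene, was at 1.31 times (1.05 to 1.66), and Slc24a5 at 0.680 times (0.489 to 0.952). Gucy2f (1.89 times, on 157 and 29 UMIs) and Pde6a (1.33 times), both more abundant in rods, were the other 2 and are named after their values were seen. Guca1a stood at 0.875 times (0.836 to 0.916) and Rcvrn at 0.852 times (0.810 to 0.897). The cone phosphodiesterase genes Pde6c (1.06 times) and Pde6h (1.09 times) were not past the limit. The list medians in cones ran from -0.07 to 0.14, against 0.02 over all genes.

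Among the other exchanger genes, Slc24a4 had 161 CPM in cones with short-wavelength light and 123 CPM with white light, against 2.29 and 4.67 CPM in rods, 70.4 times (55.5 to 90.1) and 26.2 times (19.3 to 35.8) as high. Its highest level was in rod bipolar-like cells, at 789.5 and 953 CPM. Slc24a3 was near 0 in cones, with 2 and 0 UMIs, and stood at 823 and 723 CPM in cone bipolar-like cells, while its Müller glia-like levels were 453 and 421 CPM. Slc24a5 stood at 35.6 and 49.95 CPM in rods and at 49.5 and 72.8 CPM in cones. Slc8a3, a sodium-calcium exchanger gene that needs no potassium, was higher in cones than in rods, by 10.4 times (9.65 to 11.1) and 11.1 times (9.83 to 12.4). Cnga2 and Cnga4, channel genes known from olfactory neurons, had 0 UMIs and at most 12 UMIs in any of the 6 classes. Cones over rods, 8 of 34 list genes tested were at least 2-fold higher and 9 lower under short-wavelength light. Of all genes tested, 11.2% were higher and 8.81% lower there. Under white light 7 list genes were higher and 9 lower, beside 10.6% and 12.2% of all genes. Of the list genes past 2-fold, Pde6a, Pde6b, Pde6c, Pde6h and Rom1 were gate markers.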

How the data were processed

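Mouse retina was profiled with 10x Genomics 3′ droplet chemistry, given as v3.1/v4 per the labels' protocols. The authors deposited UMI counts per gene and barcode, and the file headers give Cell Ranger 9.0.0 as their source. The submitters' processing notes name mm10, Seurat and edgeR. Whether intronic reads or strand entered the counts is not given in the sources used here.

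A barcode was kept at 300 genes or more and a mitochondrial share of up to 20%. Scrublet (scanpy 1.11.5) marked 1 barcode per library by its own threshold, so a rate of 0.8% for every 1000 barcodes was applied to the ranked scores, which removed 12.9% and 4.55%. Classes were gated by marker UMIs. Cones had at least 50% cone markers among cone and rod marker UMIs, and rods at most 5%. In the short-wavelength and white-light libraries, 54 and 17 barcodes lay between 50% and 60%, and 21 and 10 between 40% and 50%. Gate thresholds were set after marker counts were seen. The rest met no gate or more than 1, 294 and 243 cells.

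UMIs were summed per class and library. Levels carry exact Poisson, shares exact Clopper-Pearson and ratios exact conditional binomial intervals. Log2 ratios add 5 CPM. A count of 0 allows up to 3 counts. With 1 library per condition no p-value was computed. List genes named are the 4 with the most UMIs in the class, beside those said to be chosen after their values. The gene members and lists were chosen with earlier results of these data known. Steps were tested on simulated data. Alternatives covered filters, gates, doublets, thinning, scaling (TMM in edgeR 4.0.16, R 4.3.3, and median of ratios), pseudocounts and the 25% limit. Positions come from GENCODE vM21 and promoters from RefSeq. Some genes of the lists and markers are not reported here.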

Additional observations from a re-analysis of the deposited data

How the results depend on the processing

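No paired analysis was possible because each light condition had 1 library. With no filter on low counts, 1 of the 6 genes was past the 25% limit in rods, Cnga3, on 8 UMIs in each library; under every other alternative run the count stayed 0. In cones the count of 2 was 1 when cells were thinned to 1000 UMIs and 0 at a limit of 1.5-fold. With cone markers at least 70% it was 3, with Cnga1 added. List genes past the limit in rods were 1, in place of 2, with doublets kept and with thinning, and in cones 8, in place of 4, with thinning. The causes were not tested, except that thinning leaves fewer counts. All 6 genes stayed past 2-fold between cones and rods under the 9 alternatives run, though 32 of the 108 ratios left their counting interval. The light ratios of Cngb1 and Slc24a1 in cones stayed above 1 in all 17 alternatives. Ratios near 1 changed sign in places (Cngb3 in rods; Cnga1, Cnga3, Cngb3 and Slc24a2 in cones). Of 60 light ratios recomputed in rods, 8 left their counting interval, and of 102 in cones, 4. For Cnga1 in rods the log2 ratio was -0.03 with TMM scaling and -0.03 with median-of-ratios scaling, against -0.07. The cones of the white-light library, 115 cells, limit what can be seen of Cnga3. The 70% gate, the minimum of 1500 UMIs, and leaving out shared barcodes or haemoglobin-rich cells were alternatives chosen after seeing the data.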

Other observations

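Kcne2, a potassium channel subunit gene used here as a cone marker, stood at 32.1% and 33.6% of its cone level in rod bipolar-like cells, at 290 and 293 CPM, where the other cone markers stood at 0.636% or less.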
